A study of Mus musculus with 6 samples.

Results

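The 8 genes described here encode enzymes that take methyl groups off lysine 4 of histone H3, together with the CoREST scaffold proteins that hold one of these enzymes on chromatin. They were chosen by name for what their proteins do, and they are 8 of 21911 protein-coding genes on the nuclear chromosomes. The amine oxidases were Kdm1a and Kdm1b, the Jumonji enzymes were Kdm5a, Kdm5b and Kdm2b, and the CoREST scaffolds were Rcor1, Rcor2 and Rcor3. The question was whether the promoters of genes that act on the methylation of this residue carried the trimethyl mark, how strong and how wide the marked region was, and whether it differed between 6 cell conditions. The rule that chose the genes used no measured value.

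H3K4me3, the trimethylated form of lysine 4, sits on the nucleosomes that flank the start sites of active genes, and it is densest at starts that lie in CpG islands. Kdm1a (LSD1) and Kdm1b (LSD2) oxidise the lower methylated forms and cannot attack the trimethyl form, whereas Kdm5a and Kdm5b (the JARID1 enzymes) remove the trimethyl and dimethyl forms. Kdm2b is best known as a demethylase of lysine 36 and as the CXXC protein that brings a Polycomb complex to unmethylated CpG islands. The Rcor proteins join LSD1 to histone deacetylases, and the neuronal repressor Rest recruits this CoREST complex to silence neuronal genes outside neurons.

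The data were H3K4me3 ChIP-Seq peaks of STHdh cells, conditionally immortalised striatal progenitor cells from mouse of the C57BL/6 strain. Q7SST was the wild-type STHdhQ7 line and Q111SST was the STHdhQ111 line, a homozygous knock-in of mutant huntingtin, and both received vehicle. The other 4 conditions were STHdhQ111 cells given 10 uM of cyproheptadine, loxapine, diacylglycerol kinase inhibitor II (DKI) or meclizine. All 6 were held in medium without serum for 24 hours. Each genotype was represented by a single cell line, so genotype and line cannot be told apart. Cyproheptadine and meclizine are antihistamines, and loxapine is an antipsychotic.

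Each condition had 1 peak list and no replicates, so every difference below describes these lists, and no test or p-value is given. The lists held between 30758 peaks (DKI) and 45564 (loxapine), 227418 in all, with median widths between 766 and 922 bp. Of the progenitor and striatal genes used to check the label, Vim, Dlx1, Dlx2 and Foxp1 had a peak at a start in 6 lists, Nes and Sox2 in 5, Ppp1r1b in 4, and Gsx2 in 1. The blood, liver, pancreas and heart genes Ptprc, Cd3e, Alb, Ins2 and Myh6 had none in any list. Bulk ChIP cannot separate fewer marked cells from less of the mark in each cell.

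Marked genes were those with at least 1 peak no farther than 1 kb from any transcript start in GENCODE vM21. Strength is given as a percentile, the rank of the gene's strongest such peak by score among all peaks of the list, where 100 would be the strongest peak, and width is that of the same peak. The leading start of a gene is the farthest upstream start of its protein-coding transcripts. Coordinates are on GRCm38 (mm10).

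The sequences below are the promoters at which coverage of the start differed between lists or at which no list had a peak over the start. They show how CpG dinucleotides, in capitals, were spread over the bases just upstream of the start, read on the gene's strand from RefSeq entries on GRCm38.p6. Entries were matched for 7 of the 8 genes, and annotated exons were left out of what is printed.
Kdm1a, chr4:136602724-136602973, minus strand: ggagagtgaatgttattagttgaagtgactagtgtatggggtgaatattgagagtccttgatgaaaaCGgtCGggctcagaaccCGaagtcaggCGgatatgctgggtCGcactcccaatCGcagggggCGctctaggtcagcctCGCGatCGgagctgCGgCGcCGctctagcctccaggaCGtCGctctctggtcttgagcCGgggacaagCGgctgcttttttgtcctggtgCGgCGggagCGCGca
Kdm1b, chr13:47043344-47043498, plus strand: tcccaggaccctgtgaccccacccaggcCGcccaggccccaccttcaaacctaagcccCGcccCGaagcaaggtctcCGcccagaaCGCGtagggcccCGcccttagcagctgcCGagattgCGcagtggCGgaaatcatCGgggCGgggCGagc
Kdm5b, chr1:134559928-134560170, plus strand: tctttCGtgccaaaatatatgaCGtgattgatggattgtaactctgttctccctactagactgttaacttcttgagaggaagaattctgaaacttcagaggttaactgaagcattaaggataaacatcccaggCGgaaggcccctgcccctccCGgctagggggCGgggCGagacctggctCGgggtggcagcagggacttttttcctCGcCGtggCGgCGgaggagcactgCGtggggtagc
Kdm2b internal start, chr5:122900356-122900600, minus strand: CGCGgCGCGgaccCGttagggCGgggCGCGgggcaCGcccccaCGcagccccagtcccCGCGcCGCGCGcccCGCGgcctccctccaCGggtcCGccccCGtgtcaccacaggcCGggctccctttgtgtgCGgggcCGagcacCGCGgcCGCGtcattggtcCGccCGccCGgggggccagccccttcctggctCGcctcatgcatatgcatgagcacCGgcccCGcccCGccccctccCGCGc
Rcor1, chr12:111039117-111039350, plus strand: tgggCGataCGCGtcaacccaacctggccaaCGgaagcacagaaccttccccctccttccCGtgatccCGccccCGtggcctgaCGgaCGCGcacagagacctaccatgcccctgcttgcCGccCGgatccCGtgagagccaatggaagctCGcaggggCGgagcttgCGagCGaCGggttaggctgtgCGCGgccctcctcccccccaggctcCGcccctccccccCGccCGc
Rcor2, chr19:7267144-7267324, plus strand: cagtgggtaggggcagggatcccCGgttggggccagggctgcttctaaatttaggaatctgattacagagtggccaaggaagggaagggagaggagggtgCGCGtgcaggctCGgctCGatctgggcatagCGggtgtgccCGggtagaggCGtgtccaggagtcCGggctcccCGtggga
Rcor3, chr1:192138063-192138290, minus strand: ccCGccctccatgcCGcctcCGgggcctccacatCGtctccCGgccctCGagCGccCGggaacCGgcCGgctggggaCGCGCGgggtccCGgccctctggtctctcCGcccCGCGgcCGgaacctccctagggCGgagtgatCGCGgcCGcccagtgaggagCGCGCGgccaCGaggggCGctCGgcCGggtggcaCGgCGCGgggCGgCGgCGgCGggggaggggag

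Over the full RefSeq window of 300 bases, from 250 before the start to 50 after it, Rcor3 and the internal Kdm2b start were the richest in CpG, with 47 and 49 dinucleotides against a median of 7 over 32817 windows. Rcor1 had 31, Kdm1a had 29, Kdm1b had 26, Rcor2 had 21 and Kdm5b had 17. Cutting each printed stretch at its midpoint, the part nearer the start held 15 of the 21 CpG of Kdm1a, 10 of the 13 of Kdm1b, 10 of the 12 of Kdm5b and 9 of the 10 of Rcor2. It held 13 of 23 in Rcor1, 19 of 36 in Rcor3 and 15 of 36 at the internal Kdm2b start. In the 6 lists, Kdm1a and Kdm1b were covered by a peak over all 300 bases of the window in Q7SST, Q111SST, cyproheptadine and meclizine, and over 0 bases with loxapine and DKI. The Kdm5b window was covered only in Q111SST, and those of Rcor1, Rcor2 and Rcor3 in none of the 6.

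Short promoter motifs were searched on both strands of these windows as a description, and a window was counted once for a motif, whether or not its matches overlapped those of another. The GC box (GGGCGG) was in windows of 6 of the 7 genes, all but Kdm1a, and in 35.6% of all windows. The CCAAT box was in windows of Kdm1a, Kdm2b and Rcor1 and in 37.4% of all windows, and the ETS core (CCGGAA) in those of Kdm2b and Rcor3 and in 14.9%. The E box (CACGTG) was found in Rcor2 and in 7.15% of all windows. The letters of the CRE (TGACGTCA, 1.79% of all windows) and the TATA box (TATAAA, 13.6%) were in none of the 7.

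Of the 8 genes, 7 were marked in each of the 6 lists, and Kdm5b was marked in Q111SST, loxapine and meclizine. The count was therefore 7 in Q7SST, 8 in Q111SST, 8 with meclizine, 7 with cyproheptadine, 8 with loxapine and 7 with DKI. Over all protein-coding genes, 59.9% were marked in Q7SST, 58.4% in Q111SST, 58.6% with meclizine, 55.4% with cyproheptadine, 58.1% with loxapine and 55.8% with DKI, and 53.5% were marked in all 6. In strength the median of the marked members was 82.7 in Q7SST, 83.0 in Q111SST, 77.0 with meclizine, 79.5 with cyproheptadine, 82.2 with loxapine and 83.1 with DKI. Over all marked genes it was 80.4, 82.6, 80.3, 79.5, 83.0 and 76.3 in the same order. The members above the median of all marked genes numbered 4 of 7 in Q7SST, 4 of 8 in Q111SST, 2 of 8 with meclizine, 4 of 7 with cyproheptadine, 3 of 8 with loxapine and 4 of 7 with DKI. Among the members the order by median percentile over the lists that marked them was Kdm1b (97.6), Kdm1a (88.0), Kdm5a (81.8), Kdm2b (81.1), Rcor1 (79.3), Rcor3 (77.5), Rcor2 (63.1) and Kdm5b (27.6). Neighbours in this order had overlapping ranges over the lists from Kdm1b (91.7 to 99.7) and Kdm1a (80.0 to 96.4) down to Rcor3 (69.0 to 83.1). Rcor2 (53.2 to 68.0) overlapped Rcor1 (58.3 to 84.6) but not Rcor3, and Kdm5b, at 40.6 or less, overlapped none.

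**Figure D1:**
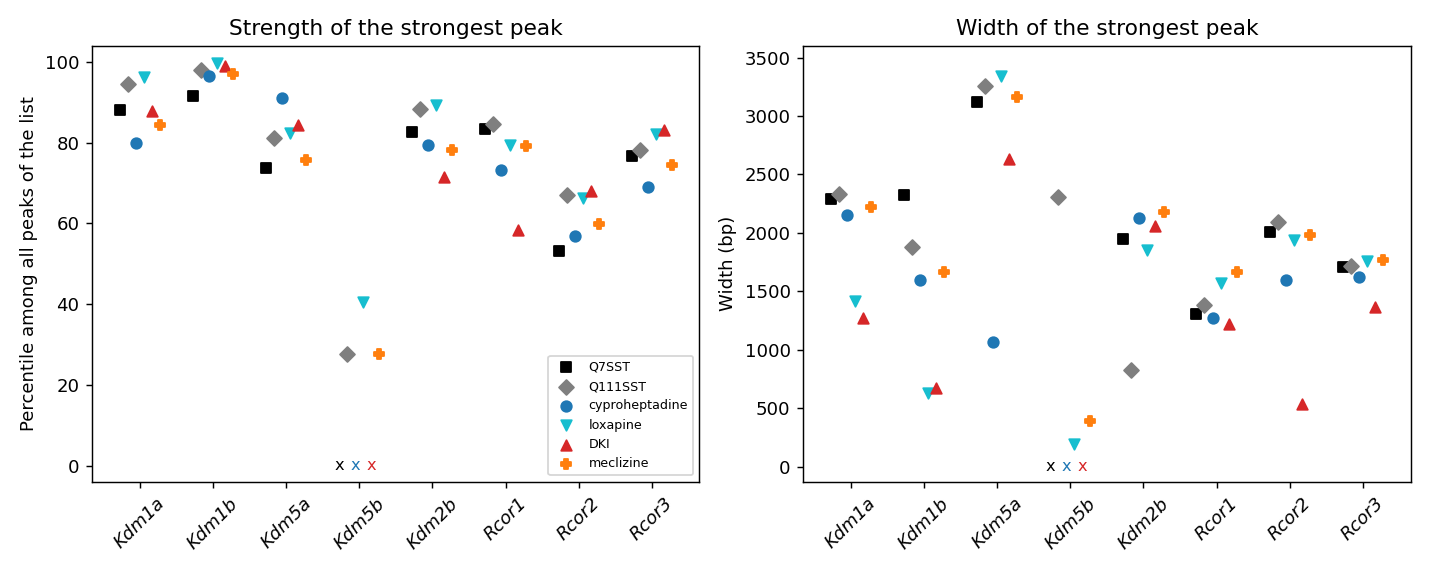
Strength (left, percentile among all peaks of the list) and width (right, bp) of the strongest peak within 1 kb of a start, for each of the 8 genes in each of the 6 lists, 1 point per list. A cross at the bottom stands for a list in which the gene was not marked, which was the case for Kdm5b in 3 lists, and Kdm1b combines the highest percentiles with 2 of the narrowest peaks, 629 bp with loxapine and 674 bp with DKI.

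Kdm1b had the strongest peak of the set in every list. The gene (ENSMUSG00000038080.17) lies on the plus strand of chromosome 13, from 47043499 to 47085279, and encodes LSD2, an amine oxidase of transcribed chromatin and of oocytes. Its percentile was 91.7 in Q7SST, 98.1 in Q111SST, 97.1 with meclizine, 96.5 with cyproheptadine, 99.7 with loxapine and 99.0 with DKI. The width of the same peak was 2321 bp in Q7SST, 1881 bp in Q111SST, 1668 bp with meclizine, 1594 bp with cyproheptadine, 629 bp with loxapine and 674 bp with DKI. Loxapine and DKI thus gave the highest percentiles and the narrowest peaks, with widths 0.334 and 0.358 times that of Q111SST.

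The narrow Kdm1b peaks lay in the upstream part of the wide one. In Q111SST the peak ran from 47042416 to 47044296, over the upstream sequence, the first exon of 172 bp and 626 bp of intron. With loxapine it ended at 47043190, 309 bp before the start, and with DKI at 47043222, 277 bp before it. At the downstream end, the stretch held by Q111SST and not by these lists was 1106 bp with loxapine and 1074 bp with DKI. Its GC content was 69.8% in both, against 44.7% and 45.8% in the stretch that was kept. At the upstream end the narrow peaks also began inside the Q111SST peak, at 47042562 with loxapine and 47042549 with DKI. Tpmt, a drug-metabolising methyltransferase, starts 156 bp upstream of Kdm1b on the opposite strand, and other annotated Tpmt starts lie farther upstream. The kept peak covered 3 of them with loxapine and 4 with DKI, so it cannot be assigned to Kdm1b alone. A second peak stood beyond the 3′ end of the gene in all 6 lists, between 47088749 and 47090394 at its widest, with percentiles from 29.8 (Q7SST) to 64.5 (loxapine).

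Kdm1a encodes LSD1, the catalytic subunit of the CoREST complex. The gene (ENSMUSG00000036940.15) lies on the minus strand of chromosome 4, from 136550540 to 136602723. Its peak stood at percentile 88.1 in Q7SST, 94.6 in Q111SST, 84.4 with meclizine, 80.0 with cyproheptadine, 96.4 with loxapine and 87.9 with DKI. Loxapine and Q111SST were high and cyproheptadine was lowest, with a difference of -14.6 points from Q111SST. In width the 4 lists with a peak over the start lay between 2154 and 2335 bp, whereas loxapine had 1414 bp and DKI had 1270 bp.

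As at Kdm1b, the shorter Kdm1a peaks lacked the start. The Q111SST peak spanned 136600739 to 136603073, with 350 bp upstream of the start, 492 bp of exon and 1493 bp of intron. With loxapine the peak lay in intron alone, from 136600734 to 136602147, and began 576 bp into the gene. DKI gave nearly the same boundaries, 136600873 to 136602142, 581 bp into the gene. The missing end, 926 bp with loxapine and 931 bp with DKI, had a GC content of 69.9% and 69.7%, against 43.7% and 43.8% in the part that was kept. The main missing stretch at Kdm1a and at Kdm1b was thus on different sides of the peak relative to the gene. In both cases it was the GC-rich side that holds the start.

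Weaker Kdm1a peaks lay inside the gene. One near 136574824 to 136575799, 26924 bp or more into the gene in Q111SST, was in all 5 mutant lists and had no counterpart in Q7SST, with percentiles of 52.3 in Q111SST, 43.8 with meclizine, 41.8 with cyproheptadine, 39.5 with loxapine and 26.6 with DKI. Another, at 136569219 to 136569958 in Q111SST, lay within 1 kb of an internal start and was found in Q111SST, cyproheptadine, loxapine and meclizine at percentiles between 7.46 and 33.1. Both were intronic.

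**Figure D2:**
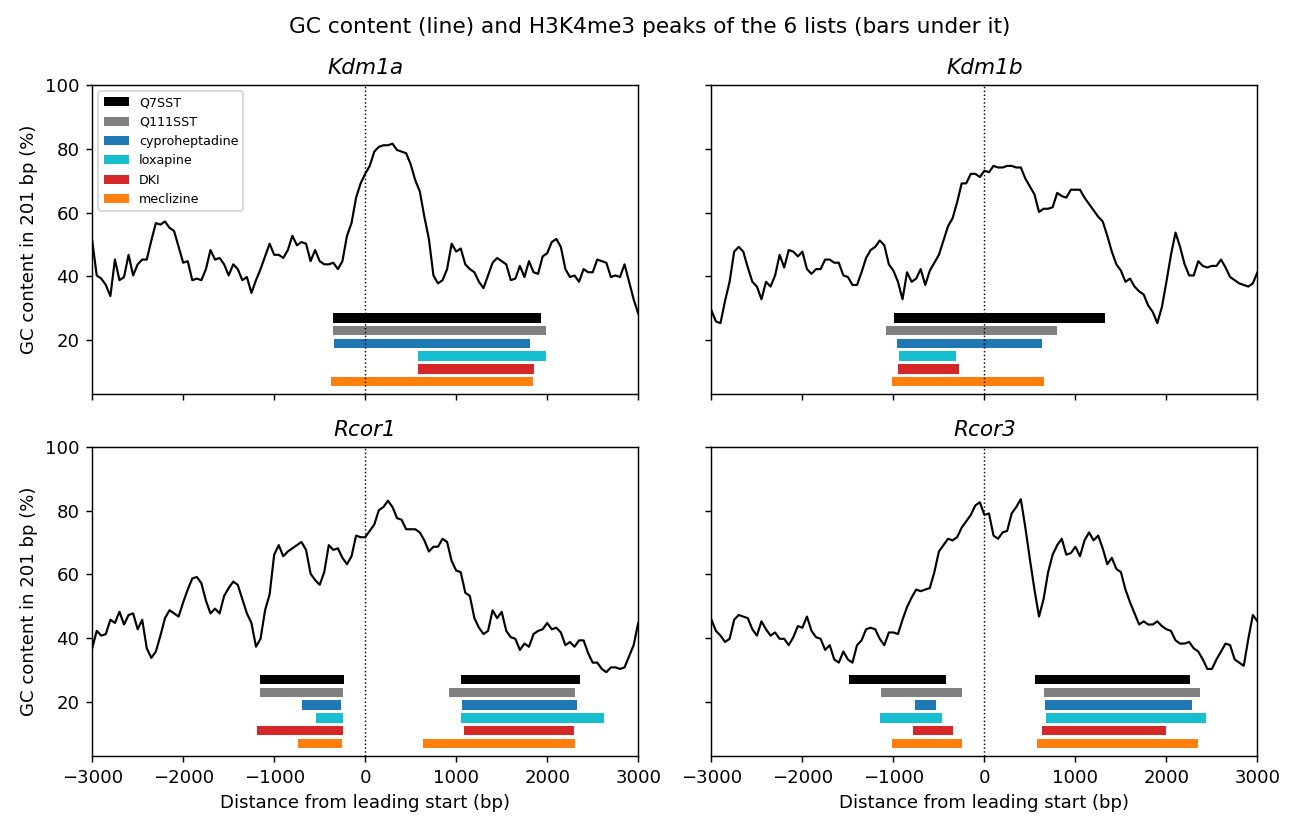
GC content in windows of 201 bp (line, %) against the distance from the leading start (bp, gene running to the right) of Kdm1a, Kdm1b, Rcor1 and Rcor3, with the peaks of the 6 lists as coloured bars beneath. The bars of loxapine and DKI stop short of the GC-rich stretch at Kdm1a and Kdm1b, and at Rcor1 and Rcor3 the bars of all 6 lists leave out the stretch over the start, whose gap had a GC content of 71.6% to 75.3%.

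Kdm5a, a trimethyl demethylase that binds the retinoblastoma protein, had the widest peak of the set outside cyproheptadine. The gene (ENSMUSG00000030180.15) is on the plus strand of chromosome 6, from 120364124 to 120444574. Widths were 3121 bp in Q7SST, 3261 bp in Q111SST, 3343 bp with loxapine, 2634 bp with DKI and 3167 bp with meclizine. With cyproheptadine the same region was split into a peak of 1063 bp over the start and one of 1231 bp in the intron, 2294 bp in total, and the gap between them, 120364353 to 120365138, had a GC content of 60.4% against 53.2% and 41.2% in its flanks.

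The percentiles of Kdm5a were 73.8 in Q7SST, 81.3 in Q111SST, 75.8 with meclizine, 91.1 with cyproheptadine, 82.4 with loxapine and 84.4 with DKI. It was the only member that was higher with cyproheptadine than in Q111SST, by 9.79 points. The start was under a peak in all 6 lists. Ccdc77 starts 232 bp into the gene on the opposite strand. The strongest Kdm5a peak covered that start in 5 lists, and with cyproheptadine it ended 4 bp short of it.

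Kdm5b was the weakest member and the only one with a peak within 1 kb of a start in some lists and not in others. Its product is the second trimethyl demethylase of the set, and the gene (ENSMUSG00000042207.17) is on the plus strand of chromosome 1, from 134560171 to 134635285. In Q111SST a peak of 2306 bp covered the start, from 134559889 to 134562194, at percentile 27.6. With loxapine a peak of 197 bp began 124 bp after the start, at percentile 40.6, and with meclizine one of 392 bp began 107 bp after it, at percentile 27.6. All 3 peaks lay in the weaker part of their lists.

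Signal near Kdm5b did not vanish in the other lists. The nearest peak to its start lay 1530 bp downstream in Q7SST, 2954 bp upstream with cyproheptadine and 2812 bp upstream with DKI. The Q7SST peak, 134561701 to 134562818 in intron, overlapped the Q111SST peak and had the higher percentile, 63.0, but fell outside the window of 1 kb. In loxapine and meclizine too the region was split, and the gaps between the start peak and the next peak, 1245 bp and 886 bp, had a GC content of 72.5% and 73.0%. An upstream peak, at -3622 to -2807 bp from the start in Q111SST, was found in all 6 lists, at percentiles of 74.9 in Q7SST, 71.1 in Q111SST, 64.0 with meclizine, 64.5 with cyproheptadine, 68.0 with loxapine and 45.1 with DKI. In the 3 lists with a peak within 1 kb of the start, the upstream peak was the stronger one.

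Kdm2b was marked at its leading start and at an internal start. The gene (ENSMUSG00000029475.17) runs on the minus strand of chromosome 5 from 122870665 to 122989823, and the internal start near 122900350 gives a shorter form that lacks the Jumonji domain. The long-form peak, which covered the leading start in all 6 lists, had percentiles of 66.4 in Q7SST, 76.6 in Q111SST, 78.3 with meclizine, 79.5 with cyproheptadine, 78.3 with loxapine and 71.5 with DKI, and widths between 2056 and 2925 bp. A930024E05Rik, an antisense gene, starts 469 bp from the leading start, inside the long-form peak of each list.

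At the internal start of Kdm2b the strongest peak had percentiles of 82.7 in Q7SST, 88.4 in Q111SST, 68.7 with meclizine, 76.0 with cyproheptadine, 89.4 with loxapine and 62.7 with DKI. The internal peak was therefore the stronger of the pair in Q7SST, Q111SST and loxapine, and the long-form peak in cyproheptadine, DKI and meclizine. It formed 1 peak of 1948 bp in Q7SST, 1851 bp with loxapine and 2110 bp with meclizine. In Q111SST, cyproheptadine and DKI it was split in 2 by a gap of 797 bp, 845 bp and 845 bp, and each gap had a GC content of 78.8%, above both flanks, which ran from 49.2% to 69.2%. Set against Q111SST peak by peak, the internal peak differed by -5.72 points in Q7SST, -19.7 with meclizine, -12.4 with cyproheptadine, 1.01 with loxapine and -25.7 with DKI. The long-form peak differed by -10.2, 1.71, 2.99, 1.76 and -5.05 points in the same order, so that with meclizine and cyproheptadine the internal peak stood lower and the long-form peak slightly higher. Of the 300 bases of the internal promoter window, 117 were under a peak in Q111SST, 116 with cyproheptadine and 125 with DKI, and all 300 in the other 3 lists.

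Other Kdm2b peaks were small and uneven. A peak in the intron near 122925646 was in the 5 mutant lists and had no counterpart in Q7SST, with percentiles of 45.2 in Q111SST, 69.1 with meclizine, 10.1 with cyproheptadine, 22.7 with loxapine and 20.2 with DKI. One upstream of the gene, at -4745 to -4326 bp from the leading start in Q7SST, went the other way, at percentile 70.6 in Q7SST against 18.7 in Q111SST, 18.7 with meclizine, 14.9 with DKI and 3.40 with loxapine, and it was not called with cyproheptadine. Neither was within 1 kb of a start, and both were at most 420 bp wide.

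Among the scaffolds, Rcor1, the first CoREST protein, had the widest range of strength of the 7 genes marked in all lists, 26.4 points. The gene (ENSMUSG00000037896.17) is on the plus strand of chromosome 12, from 111039351 to 111115901. Its percentile was 83.5 in Q7SST, 84.6 in Q111SST, 79.2 with meclizine, 73.2 with cyproheptadine, 79.4 with loxapine and 58.3 with DKI. DKI stood apart at the low end, and the wild-type list differed from the mutant vehicle list by -1.15 points. The strongest peak was almost wholly intronic and between 1216 bp (DKI) and 1666 bp (meclizine) wide.

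No list had a peak over the Rcor1 start. A weaker peak lay upstream in all 6 lists, at percentiles of 57.4 in Q7SST, 64.2 in Q111SST, 61.0 with meclizine, 64.5 with cyproheptadine, 67.4 with loxapine and 45.1 with DKI. Between it and the intronic peak was a gap of 1290 bp in Q7SST, 1168 bp in Q111SST, 896 bp with meclizine, 1324 bp with cyproheptadine, 1295 bp with loxapine and 1321 bp with DKI. The gap held the promoter printed above and the start, and with the exception of 33 bp under the meclizine peak it held the first exon too. Its GC content was 71.6% to 74.6%, against 61.8% to 64.5% in the upstream peaks and 41.6% to 48.9% in the intronic peaks.

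Rcor3 had the same arrangement. The gene (ENSMUSG00000037395.15) is on the minus strand of chromosome 1, from 192098546 to 192138062, and its product is a CoREST paralog. The strongest peak lay inside the gene, at percentile 76.8 in Q7SST, 78.3 in Q111SST, 74.5 with meclizine, 69.0 with cyproheptadine, 82.1 with loxapine and 83.1 with DKI, and its width was 1365 bp with DKI and 1619 to 1771 bp in the other 5. An upstream peak stood at percentiles between 37.4 (DKI) and 54.9 (meclizine). The gap over the start measured 982 bp in Q7SST, 904 bp in Q111SST, 822 bp with meclizine, 1199 bp with cyproheptadine, 1138 bp with loxapine and 980 bp with DKI. GC content was 71.9% to 75.3% in the gap and 47.9% to 61.6% in the flanking peaks. At Rcor1 and Rcor3 alike meclizine had the shortest gap and cyproheptadine the longest. At Rcor1 the longest gap, 1324 bp, was nearly level with the 1321 bp of DKI. The antisense gene Gm10516 starts on the opposite strand 717 bp from the leading start, and Gm37055 starts 1373 bp from it, and the strongest Rcor3 peak covered starts of both in each list, so it cannot be assigned to Rcor3 alone.

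Rcor2, the CoREST paralog known from neural progenitors and embryonic stem cells, was the weakest scaffold. The gene (ENSMUSG00000024968.14) is on the plus strand of chromosome 19, from 7267325 to 7275225. Its percentile was 53.2 in Q7SST, 67.1 in Q111SST, 59.9 with meclizine, 56.9 with cyproheptadine, 66.2 with loxapine and 68.0 with DKI, a difference of -13.9 points between Q7SST and Q111SST. The peak began 354 to 527 bp after the leading start in 5 lists, where it was 1598 to 2089 bp wide and covered a second, downstream start. With DKI it was 533 bp wide and began 1592 bp into the gene. The part ahead of it that Q111SST covered, 1238 bp, had a GC content of 71.6%, the kept part had 61.5%, and the 318 bp left out at the other end had 56.0%.

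**Figure D3:**
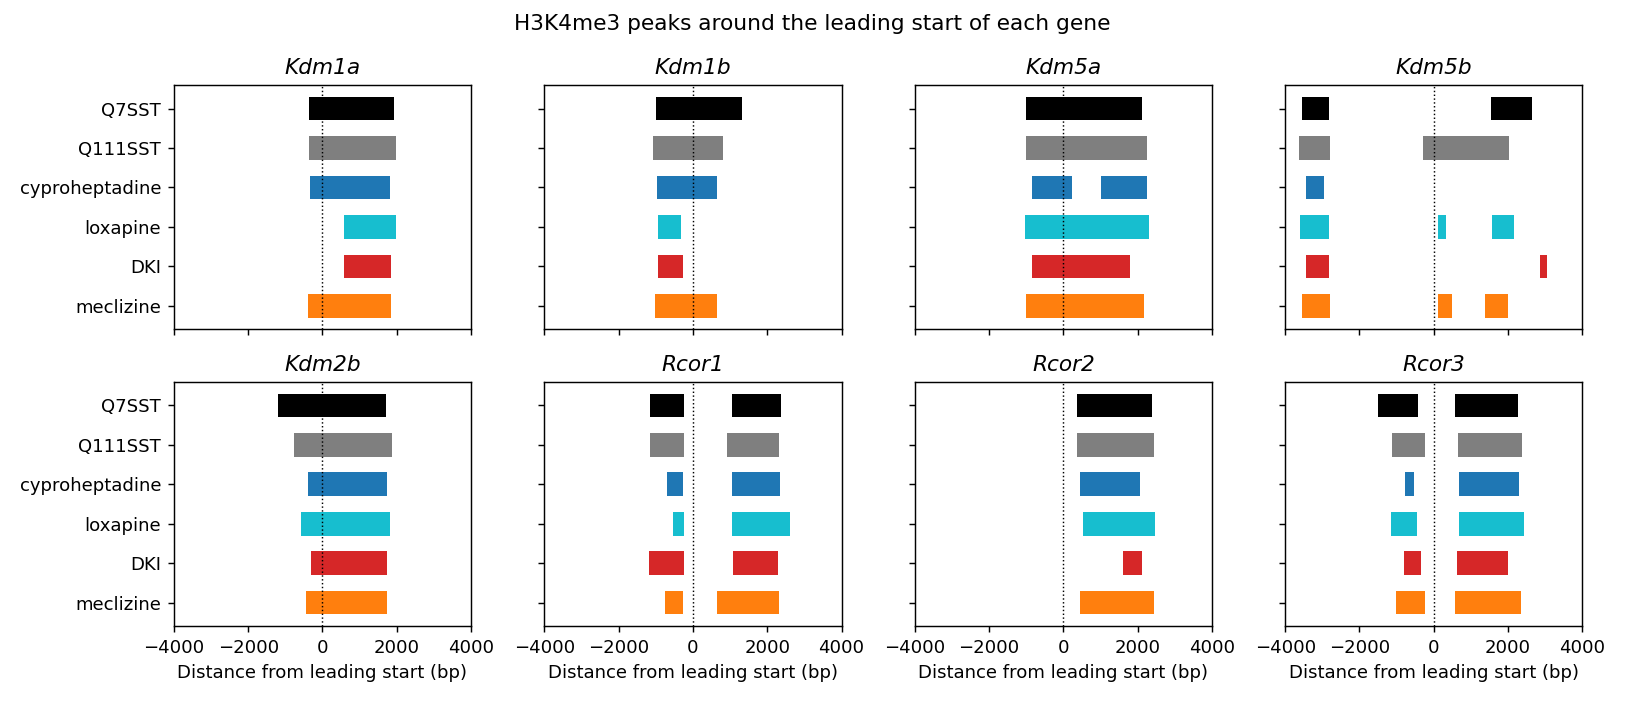
Extent of every peak within 4000 bp of the leading start (dotted line, 0 bp, gene running to the right) of each of the 8 genes, 1 row of bars per list. The start was under a bar in all 6 lists at Kdm5a and Kdm2b, in 4 at Kdm1a and Kdm1b, in 1 at Kdm5b and in none at Rcor1, Rcor2 and Rcor3.

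Leading starts outside every peak were counted over all genes as well, a comparison chosen after the member peaks had been seen. Among the marked members the count was 3 of 7 in Q7SST, 3 of 8 in Q111SST, 4 of 8 with meclizine, 3 of 7 with cyproheptadine, 6 of 8 with loxapine and 5 of 7 with DKI. Among all marked genes the share was 23.2% in Q7SST, 23.4% in Q111SST, 22.0% with meclizine, 31.1% with cyproheptadine, 28.7% with loxapine and 27.2% with DKI. Counting a start of any transcript, coding or not, the members left without one under a peak were 2 in Q7SST, 2 in Q111SST, 3 with meclizine, 2 with cyproheptadine, 5 with loxapine and 5 with DKI. Over all marked genes the share with no start under a peak was 11.5% in Q7SST, 11.7% in Q111SST, 10.6% with meclizine, 18.0% with cyproheptadine, 16.3% with loxapine and 15.3% with DKI. The members are a small set, and 3 of the uncovered starts in each list were the same 3 Rcor genes.

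GC content was measured beside these counts. In the 501 bp around the leading start it was 77.0% for Rcor3, 73.5% for Rcor1, 73.1% for Kdm1b, 69.1% for Kdm1a, 67.9% for Rcor2, 62.7% for Kdm5b, 57.9% for Kdm5a and 46.3% for Kdm2b, against a median of 62.5% over genes marked in all 6 lists. The members whose start was covered in every list were thus the pair with the lowest GC content, and the 5 with the highest were uncovered in 2 lists or more, as Kdm5b was. Among all marked genes with 70 to 75% GC, the share with an uncovered start was 26.3% in Q7SST, 27.5% in Q111SST, 22.0% with meclizine, 44.3% with cyproheptadine, 40.0% with loxapine and 39.0% with DKI. At 75% GC or more the shares were 52.1%, 55.2%, 46.3%, 71.7%, 66.4% and 64.7% in the same order, and at 60 to 70% GC they were 13.0%, 12.9%, 12.2%, 21.2%, 18.6% and 16.9%. The lists lay between 20.6% and 23.9% at 50 to 60% GC and between 52.5% and 55.1% below 50% GC. The share was thus lowest at 60 to 70% GC and higher on both sides, and the leading start of Kdm2b was covered in every list although most marked genes of its GC content had an uncovered one. Genome-wide, in each bin from 60% GC up, loxapine, DKI and cyproheptadine left starts uncovered more often than Q7SST, Q111SST and meclizine. At the members, leading starts were uncovered for 6 of 8 with loxapine, 5 of 7 with DKI and 3 of 7 with cyproheptadine. The other lists had 3 of 7 in Q7SST, 3 of 8 in Q111SST and 4 of 8 with meclizine. Cyproheptadine covered the Kdm1a and Kdm1b starts. The part of GC content in the narrow Kdm1a and Kdm1b peaks was not tested.

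**Figure D4:**
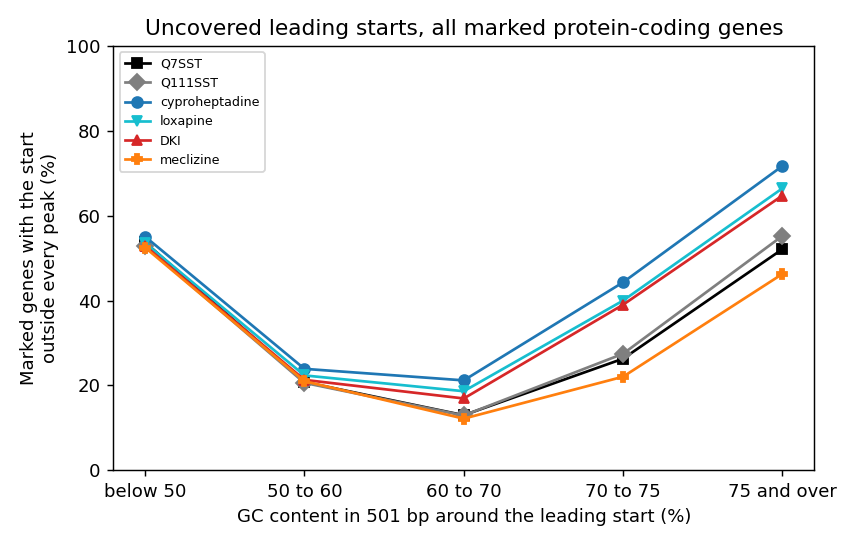
Share (%) of all marked protein-coding genes whose leading start lay outside every peak, by GC content in 501 bp around the start (%), 1 line per list. At 70 to 75% GC the lines of cyproheptadine (44.3%), loxapine (40.0%) and DKI (39.0%) lie above those of Q111SST (27.5%), Q7SST (26.3%) and meclizine (22.0%), and below 50% GC the 6 lines meet.

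Each list was then set against Q111SST, which serves as the common reference of all 5 comparisons, so these are not independent of each other. A difference of 10 percentile points or of 1.5 times in width was used as a rule of size. Between the lines, all 7 members marked in both lists were lower in Q7SST, as were 58.1% of all genes marked in both, with a median difference of -6.43 points against -1.04 over all genes. Ranked among marked genes only, the members' value was -10.2 points. Only Rcor2 was 10 points or more lower, and 13.0% of all genes were. None was 10 points or more higher, against 8.85% of all genes. In width the median ratio was 0.980 against 0.973 over all genes, and 0 members were narrower by the rule against 6.89% of all genes. Kdm2b was the 1 member wider by the rule, with a ratio of 2.35 against the single strongest piece of the split Q111SST peak at the same internal start, against 5.82% of all genes.

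With cyproheptadine, 6 of 7 members were lower than in Q111SST, against 72.3% of all genes, and the median difference was -9.24 points against -3.74 over all genes. It was -1.63 points with only peaks over a start and -23.7 with a common minimum score, so its size rests on these choices. One of the 6, Kdm2b at -8.83 points, sets its long-form peak against the internal peak of Q111SST, and peak by peak the differences were 2.99 and -12.4 points. Kdm1a, Rcor1 and Rcor2 were 10 points or more lower, where 25.9% of all genes were. None was higher by the rule, against 3.48% of all genes. The median width ratio was 0.920 against 0.887 over all genes, and Kdm5a, with its split peak, was the 1 member narrower by the rule against 16.0% of all genes.

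Loxapine gave the members percentiles close to those of Q111SST, with 6 of 8 higher against 46.8% of all genes, 2 lower against 53.2%, and a median difference of 1.35 points against -0.352 over all genes. It lay between 0.620 points with lists of equal size and 3.49 with a common minimum score. Kdm5b was 10 points or more higher, by 13.0 points, against 7.10% of all genes, and 0 members were lower by the rule against 9.41%. In width, Kdm1a, Kdm1b and Kdm5b were narrower by the rule, 3 of 8, against 8.51% of all genes. The ratio was 0.606 at Kdm1a, 0.334 at Kdm1b and 0.0854 at Kdm5b. Kdm2b was wider by the rule, against 2.52% of all genes. Its ratio of 2.23 was to the single strongest piece of the split Q111SST peak at the same internal start. The median ratio was 0.976, against 0.987 over all genes, and it was 1.03 without Kdm5b, which was left out after its values were seen.

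With DKI, 4 of 7 members were higher than in Q111SST, against 21.7% of all genes, and 3 lower, against 78.3%. The median difference was 0.921 points where that of all genes was -6.57. The sign of the members' value turned with the window, to -0.986 points over the 2 members with a peak on a start and to -2.93 with a 5 kb window. Kdm2b and Rcor1 were lower by the rule, with differences of -16.9 and -26.4 points, against 38.8% of all genes. The Kdm2b value again sets a long-form peak against the internal peak of Q111SST, and peak by peak the differences were -5.05 and -25.7 points. None was higher by the rule, against 3.55% of all genes. Kdm1a, Kdm1b and Rcor2 were narrower by the rule, with ratios of 0.544, 0.358 and 0.255, against 18.7% of all genes. The median ratio was 0.797 against 0.833 over all genes.

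With meclizine, 7 of 8 members were lower than in Q111SST, against 64.6% of all genes, and the median difference was -5.46 points against -1.54 over all genes. Kdm1a and Kdm2b were lower by the rule, both by just over 10 points, against 10.0% of all genes, and none was higher by the rule against 4.18%. For Kdm2b this sets the long-form peak of meclizine against the internal peak of Q111SST. Kdm5b was the 1 member narrower by the rule, with a ratio of 0.170, against 4.63% of all genes. The median ratio was 0.962 against 0.942 over all genes. The strongest Kdm2b peak was wider than the 830 bp piece that was strongest in Q111SST in each of the 5 lists. With meclizine, cyproheptadine and DKI, where 3.78%, 0.978% and 1.32% of all genes were wider by the rule, this sets different starts side by side. The long-form peak itself was narrower than in Q111SST, with ratios of 0.823, 0.802 and 0.776. At the internal start the ratios to the 830 bp piece of the split Q111SST peak were 2.54, 0.867 and 0.790 in the same order.

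Peak positions were then compared. All 10 member peaks of Q7SST, 13 of cyproheptadine, 12 of loxapine, 11 of DKI and 12 of meclizine overlapped a Q111SST peak. Of all peaks within 1 kb of a protein-coding start, 91.1%, 98.7%, 96.8%, 98.9% and 97.2% did so in the same order. Asking for a reciprocal overlap of at least 50% left 9, 8, 8, 7 and 9 member peaks, and 83.0%, 85.9%, 87.4%, 85.6% and 91.8% of all such peaks.

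Partners and paralogs of these proteins were read from a list of 20 genes named for their known roles. Of the 20, 19 were marked in every list, and the exception was Kdm5d, a Y-linked paralog of Kdm5a and Kdm5b, which had no peak in any list of these lines, both described as female. Rest was the strongest by median percentile, 98.0, with 96.5 in Q7SST, 99.2 in Q111SST, 97.1 with meclizine, 98.8 with cyproheptadine, 99.4 with loxapine and 96.4 with DKI. Bcor, a subunit of the Polycomb complex that Kdm2b guides, was the weakest, with a median of 39.4. Its percentile was 16.9 in Q7SST, 60.8 in Q111SST, 53.5 with meclizine, 40.6 with cyproheptadine, 38.3 with loxapine and 26.6 with DKI, so that Q7SST had the lowest value and Q111SST the highest.

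Against Q111SST, the partners that were 10 points or more lower numbered 4 in Q7SST, 1 with meclizine, 6 with cyproheptadine, 4 with loxapine and 5 with DKI, of 19. Over all genes the shares were 13.0%, 10.0%, 25.9%, 9.41% and 38.8% in the same order. Those 10 points or more higher numbered 0, 2, 1, 2 and 2, and over all genes the shares were 8.85%, 4.18%, 3.48%, 7.10% and 3.55%. The median differences of the partners were -2.20 in Q7SST, -2.62 with meclizine, -2.95 with cyproheptadine, -0.355 with loxapine and -7.41 with DKI, beside the differences over all genes given above for each list. The leading start lay outside every peak for 8 of 19 partners in Q7SST, 10 in Q111SST, 9 with meclizine, 10 with cyproheptadine, 11 with loxapine and 10 with DKI. Over all marked genes that share was 22.0% to 31.1%.

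The genes most like Rcor1 over the 6 percentiles were looked for because Rcor1 had the widest range. Of 11712 other genes marked in all 6 lists, the nearest was Kctd5, at a Euclidean distance of 3.82 points, with 82.9 in Q7SST and 59.1 with DKI. Afmid and Tk1 followed at 4.88 each, and their values were identical in all 6 lists.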

How the data were processed

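Crosslinked chromatin of STHdh cells was cut with micrococcal nuclease, the H3K4me3 fraction was pulled down with an antibody, and single-end reads of 50 bp were sequenced. The authors deposited 1 peak list per condition, in which each peak has a position and a score that is a whole number. The submitters' processing notes name Trimmomatic 0.36, Bowtie2, SAMtools 1.3, MACS2 and mm10, with no role or order. The scale of the deposited score, the thresholds, any input control and whether triplicates were pooled are not given in the sources used here, so scores were used only as ranks within a list, except for 1 alternative with a common minimum of 47, the pooled median. Depth is unknown, since read totals were not used here, and the part of depth in peak numbers and widths was not tested.

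Peaks were matched to GENCODE vM21 starts on GRCm38, on which 0 peaks ran past the end of any of 21 chromosomes. Groups were taken from the sample labels, with 1 list per group, so counts, percentiles and widths were compared without a test and set beside the same values over all 21911 protein-coding genes, or those marked in both lists. The members and the lists of partners and markers were chosen with earlier results of these data known, and the comparisons of start coverage, of GC content, of overlap shares over all genes and of Kdm2b start by start after the member peaks had been seen. The named genes were the 8 members, the partners missing from a list and the weakest and strongest by median, the 3 genes nearest to the member with the widest range, genes that start within 1 kb of a member start, and the cell type markers, of which 1 is not reported here. Alternatives were the common minimum score, lists of equal size (30758 peaks), windows of 0 and 5 kb, percentiles among marked genes, total width, merging of peaks within 1 kb and a reciprocal overlap of 50%. Python 3.11.15, numpy 2.4.6, pandas 2.3.3 and pysam 0.24.0 were used, and the counting was tested on simulated data.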

Additional observations from a re-analysis of the deposited data

How the results depend on the processing

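Of the limits, the absence of replicates and of read totals bears on every difference between lists, and the members are few enough that 1 gene can move a median. No paired analysis was possible because a single list stood for each condition. Asking for a peak over a start left 3 members marked with loxapine, 2 with DKI and 5 with meclizine, since peaks beside a start and not over it no longer counted. For the other movements given here the cause was not tested. With the common minimum score the median percentile difference of the members from Q111SST was -9.88 in Q7SST, -3.86 with meclizine, -23.7 with cyproheptadine, 3.49 with loxapine and 2.04 with DKI, and Kdm5b was marked in no list. With lists of equal size it was -7.82 in Q7SST, -5.40 with cyproheptadine, 0.620 with loxapine and 1.52 with DKI, and among marked genes only it was -10.2 in Q7SST, 2.62 with loxapine, 3.32 with DKI and -4.84 with meclizine. With a peak over the start it was -1.63 with cyproheptadine, and with DKI it turned negative, to -0.986 over 2 members. With a 5 kb window, in which all 8 members were marked in all 6 lists, it was -2.93 with DKI, again a change of sign, and -6.28 with meclizine. The median width ratio under total width, merged peaks, a peak over the start and a 5 kb window was 0.972, 0.960, 0.960 and 0.970 in Q7SST, 0.744, 0.847, 0.802 and 0.884 with cyproheptadine, 0.873, 0.667, 0.928 and 0.990 with loxapine, and 0.694, 0.795, 0.792 and 0.784 with DKI. With meclizine the first 3 gave 0.945, 0.952 and 0.950. Leaving out Kdm5b, chosen after seeing the data, turned the ratio to 1.03 with loxapine and gave 0.971 with meclizine. A reciprocal overlap of 50% left 8 of 13 member peaks with cyproheptadine and 7 of 11 with DKI. Counting any annotated start, also chosen after seeing the data, kept each count of uncovered starts within 1.5 times the one for leading starts. Counts of marked partners stayed within 1.5 times under every alternative run.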
